A study of Mus musculus with 6 samples.

Results

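Ctsk, Acp5, Mmp9, Tnfsf11 and Lgr4 are 5 genes of bone resorption and its control. They were taken by gene symbol, as the probe sets to which the platform's annotation gives exactly 1 symbol and that symbol is one of these names. Each was represented by 1 probe set, which makes 5 of the 8997 probe sets and 5 of the 5780 named genes of the table. The arrays measured the forearm bones, radius and ulna, of newborn 129sv mice. Of the 6 arrays, 3 came from mice that carried the del175k mutation of Tnni2, the gene of a fast skeletal muscle troponin, and 3 from wild-type littermates. Whether 1 or both alleles carried the mutation is not given in the sources used here. The labels do not state that each array is 1 animal, so the spread between arrays may be partly technical.

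Osteoclasts are multinucleated cells of the macrophage lineage that dissolve mineralized cartilage and bone. They form when RANKL, the product of Tnfsf11, is presented by osteoblast-lineage cells and hypertrophic chondrocytes to its receptor RANK on precursors that also receive the growth factor M-CSF. RANK signals through TRAF6, NF-kappaB and calcineurin to the transcription factor NFATc1, which switches on the genes of resorption, while the soluble decoy osteoprotegerin holds RANKL back. Cathepsin K, the product of Ctsk, is the main collagen-degrading protease of the resorption pit. Acp5 encodes tartrate-resistant acid phosphatase, the histochemical marker of osteoclasts, and Mmp9 a gelatinase by which osteoclasts and other marrow cells open the cartilage of the growth plate. Lgr4 encodes a receptor for R-spondins, which amplifies Wnt signalling, and in mouse it was also described as a receptor of RANKL that restrains osteoclast formation.

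The start regions of 4 of the genes were read from RefSeq (build GRCm38.p6), as 250 bases before and 50 after the start of the transcript. They are shown so that Ctsk and Acp5, whose mutant and wild-type arrays were separate, can be set beside the ligand and the receptor, whose arrays overlapped. Mmp9 is named only. Acp5 has 3 annotated starts, and the one shown is the only one of the 3 that held a letter string marked here. Capitals mark, on either strand, the letters GAGGAA (a PU-box, read by PU.1), CATGTG (an E-box of the kind read by MITF) and TATAAA (the TATA box).
Ctsk, chr3:95498960-95499259, + strand: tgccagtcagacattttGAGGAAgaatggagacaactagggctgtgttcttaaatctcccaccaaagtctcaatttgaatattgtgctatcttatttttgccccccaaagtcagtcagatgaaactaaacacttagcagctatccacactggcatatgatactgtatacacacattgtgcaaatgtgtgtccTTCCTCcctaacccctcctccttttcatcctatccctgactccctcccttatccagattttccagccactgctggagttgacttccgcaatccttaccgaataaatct
Acp5, chr9:22130549-22130848, - strand: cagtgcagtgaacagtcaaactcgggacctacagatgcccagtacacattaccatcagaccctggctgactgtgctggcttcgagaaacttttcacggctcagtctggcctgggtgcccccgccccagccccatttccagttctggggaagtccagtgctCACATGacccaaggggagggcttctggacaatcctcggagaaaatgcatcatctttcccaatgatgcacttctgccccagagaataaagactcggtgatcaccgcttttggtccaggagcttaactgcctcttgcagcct
Tnfsf11, chr14:78307994-78308293, - strand: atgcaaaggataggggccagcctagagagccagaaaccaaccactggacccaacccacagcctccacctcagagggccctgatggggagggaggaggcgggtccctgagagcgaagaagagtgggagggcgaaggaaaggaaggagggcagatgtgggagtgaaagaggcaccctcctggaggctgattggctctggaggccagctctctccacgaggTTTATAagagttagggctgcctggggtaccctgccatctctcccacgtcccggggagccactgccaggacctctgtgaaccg
Lgr4, chr2:109917397-109917696, + strand: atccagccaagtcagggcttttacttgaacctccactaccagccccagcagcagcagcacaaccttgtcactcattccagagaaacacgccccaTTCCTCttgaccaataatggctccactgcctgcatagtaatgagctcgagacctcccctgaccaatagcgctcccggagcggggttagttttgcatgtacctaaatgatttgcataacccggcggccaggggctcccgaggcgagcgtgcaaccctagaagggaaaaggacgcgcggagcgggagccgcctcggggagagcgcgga
The Ctsk window held GAGGAA at 2 places, on opposite strands, and the Lgr4 window held it at 1. This string is common, being present in 28.3% of the 32851 start regions of the same length. CATGTG was found at 1 place in the Acp5 window, and 14.2% of all windows had a match. As that window was picked from 3 for holding a marked string, this share is no measure for it. TATAAA was found at 1 place in the Tnfsf11 window, 32 bases before the start, against 13.6% of all windows. It lay on the strand opposite to the one printed, where the letters read TTTATA. The core NFAT letters GGAAA, which are not capitalized, were found in each of the 4 windows and in 61.3% of all. TGANTCA (AP-1) and CACGTG (an E-box) had no match in any of the 4, against 7.81% and 7.15% of all windows. The matches describe letters in these windows and carry no statement about binding.

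The 6 arrays were of similar brightness except for 1. Median intensities were between 45.5 and 47.8 on the mutant arrays, against 48.4 and 48.0 on wild-type replicates 2 and 3 and 39.6 on wild-type replicate 1, whose probe sets lay at a median of -0.30 on the log2 scale from the other arrays. The 5 genes and the counts over gene lists are therefore also given without this array, as are the differences of other named genes that it moved by over 1.5 times or turned. Tnni2 itself was at 134, 127 and 198 in mutant bone, against 102, 165 and 258 in wild-type bone, with groups that overlapped. Its log2 difference was -0.12 ± 0.33 (SE, from limma with an adjusted p of 0.943), and -0.46 without wild-type replicate 1. As del175k deletes a codon, the genotype labels cannot be checked by this level. With limma on all 8997 probe sets, 0 passed an adjusted p of 0.05 (0%). At an unadjusted p under 0.05 there were 516 higher in mutant bone (5.74%) and 153 lower (1.7%), a split of 532 and 322 after quantile normalization and of 570 and 294 after median centring.

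The 3 resorption enzymes had higher levels in mutant bone, and the RANKL signals overlapped between the genotypes. Every mutant array was brighter than every wild-type array in 3 of the 5 genes, an order shown by 9.18% of all probe sets. The 5 genes were chosen by their differences between these same mutant and wild-type arrays. Their differences are therefore given as a description with no p-value, and nothing is read from the count. Log2 differences are mutant minus wild-type, each with limma's moderated SE, and all means are of 3 arrays with their SD.

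Ctsk had intensities of 581, 300.3 and 438 in mutant bone, against 117, 238 and 244 in wild-type bone. Mutant replicate 1 was the brightest and wild-type replicate 1 the dimmest of the 6, and the groups did not overlap: the lowest mutant array stood 1.23-fold above the highest wild-type array. The means were 439.7 ± 140.3 in mutants and 199.9 ± 71.7 in wild-type mice, a log2 difference of 1.16 ± 0.34 or 2.24-fold. Without wild-type replicate 1 the difference was 0.82 ± 0.28, or 1.76-fold.

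Acp5 had 397, 366 and 457 in mutant bone, against 196, 237 and 319 in wild-type bone. The mutant arrays were close together, and the lowest of them lay 1.15-fold above the highest wild-type array. The means were 407 ± 46.3 in mutants and 251 ± 62.7 in wild-type mice. The log2 difference was 0.72 ± 0.23, or 1.65-fold, and 0.56 ± 0.20 without wild-type replicate 1.

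Mmp9 had 692, 485 and 629.5 in mutant bone, against 262, 359 and 444 in wild-type bone. Its lowest mutant array, replicate 2, lay 1.09-fold above its highest wild-type array, replicate 3, which is the narrowest gap of the 3 enzymes. The means were 602 ± 106 in mutants and 355 ± 91.1 in wild-type mice, a log2 difference of 0.78 ± 0.25 or 1.72-fold. Without wild-type replicate 1 this was 0.58 ± 0.21. For each of the 3 enzymes mutant replicate 2 was the lowest mutant array and wild-type replicate 1 the lowest wild-type array, while wild-type replicate 3 was the highest wild-type array. Markers of epidermis, a tissue outside bone, were uneven over the same arrays. The summed intensity of 6 of them was 75.3, 460 and 51.3 on the mutant arrays, against 1798, 1248 and 47.3 on the wild-type arrays, in the order of the replicate numbers. Mutant replicate 2 and wild-type replicate 1, which held most of this signal in their groups, were thus the arrays on which the 3 enzymes were lowest. The part of the epidermal signal in the enzymes' differences was not tested.

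Tnfsf11, the RANKL gene, had 46.4, 50.3 and 41.6 in mutant bone, against 52.0, 37.8 and 31.2 in wild-type bone. The groups overlapped, with the highest value of all on wild-type replicate 1, the array on which the other 4 genes were lowest. The means were 46.1 ± 4.37 in mutants and 40.3 ± 10.6 in wild-type mice, and the log2 difference was 0.22 ± 0.23, or 1.16-fold. A mutant array was brighter than a wild-type array in 6 of the 9 possible pairs. Here wild-type replicates 1 and 3 set the size: the difference was 0.42 ± 0.18 without the first of them, where the groups no longer overlapped (as in 10.7% of all probe sets without that array), and 0.05 without the other.

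Lgr4 had 47.2, 33.1 and 30.5 in mutant bone, against 14.6, 32.1 and 25.5 in wild-type bone. Only 1 mutant array stood clear of all the others, the value of 14.6 lay under 20, an intensity that every probe set of the table reached on at least 3 arrays, and the remaining 4 values lay between 25.5 and 33.1 in mixed order. The means were 36.9 ± 8.97 in mutants and 24.1 ± 8.83 in wild-type mice, a log2 difference of 0.66 ± 0.31 or 1.58-fold. It was 0.34 ± 0.24 without wild-type replicate 1, and with mutant replicate 1 left out it was 0.47. The difference was 0.79 without mutant replicate 3 and 0.91 without wild-type replicate 2. Under each of these the groups no longer overlapped, as in 1424 and 1711 of all 8997 probe sets.

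**Figure D1:**
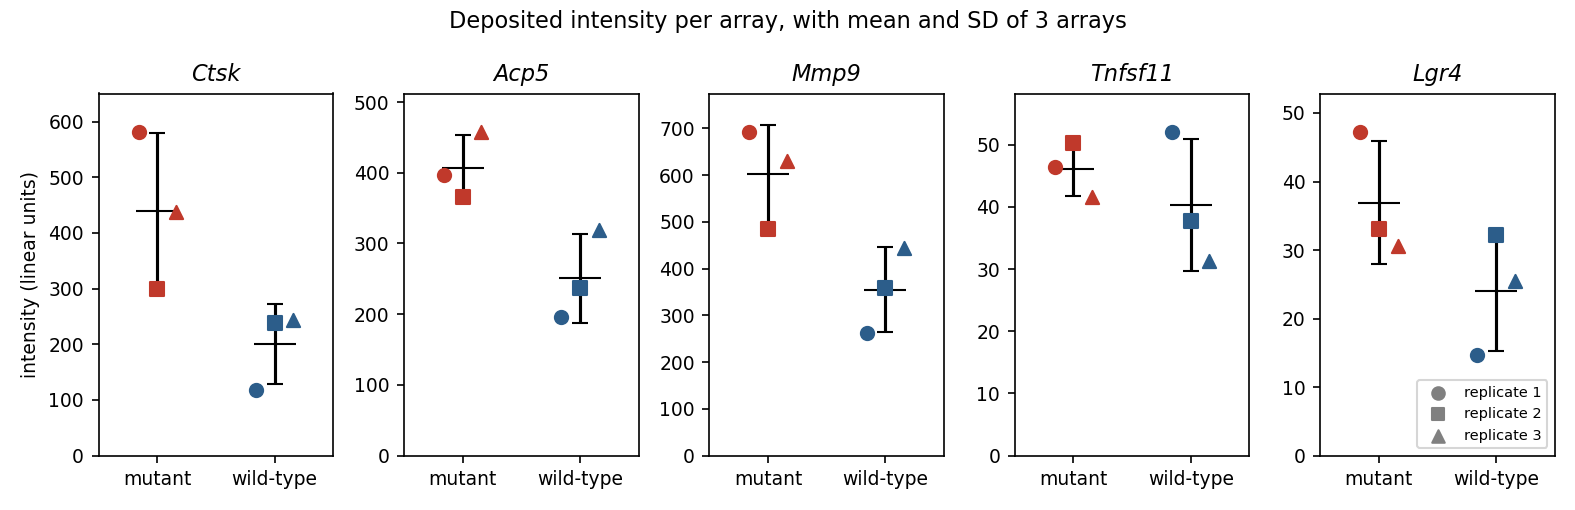
Intensity of each gene on each array (linear units, each panel with its own axis from 0), mutant arrays on the left and wild-type arrays on the right; marker shapes give the replicate number, the horizontal bar the mean and the whiskers the SD of 3 arrays. The mutant and wild-type points are separate for Ctsk, Acp5 and Mmp9 and overlap for Tnfsf11 and Lgr4.

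On the scale of each gene's own mean, the 5 genes formed more than 1 pattern across the arrays. Ctsk spread most among the mutants, from 0.45 above to 0.50 below the mutant mean on the log2 scale, and Mmp9 ran the same way with 0.22 above and 0.30 below on the same arrays (replicates 1 and 2). Acp5 stayed within 0.17 above and 0.14 below, with mutant replicate 3 at the top. Among wild-type arrays, replicate 1 lay below the wild-type mean by 0.69 for Ctsk, 0.32 for Acp5, 0.41 for Mmp9 and 0.64 for Lgr4. For Tnfsf11 the same array lay 0.40 above the mean. Dividing each array by its median brought wild-type replicate 1 nearer to the others without moving it past them for Ctsk and Mmp9. The centred intensities of Ctsk were 562, 304 and 422 in mutants, against 136, 226 and 235 in wild-type mice. Those of Acp5 were 384, 371 and 441 in mutants, against 228, 225 and 307 in wild-type mice, and the 3 enzymes still did not overlap. Tnfsf11 was then at 44.9, 50.9 and 40.1 in mutants, against 60.4, 35.9 and 30.0 in wild-type mice.

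**Figure D2:**
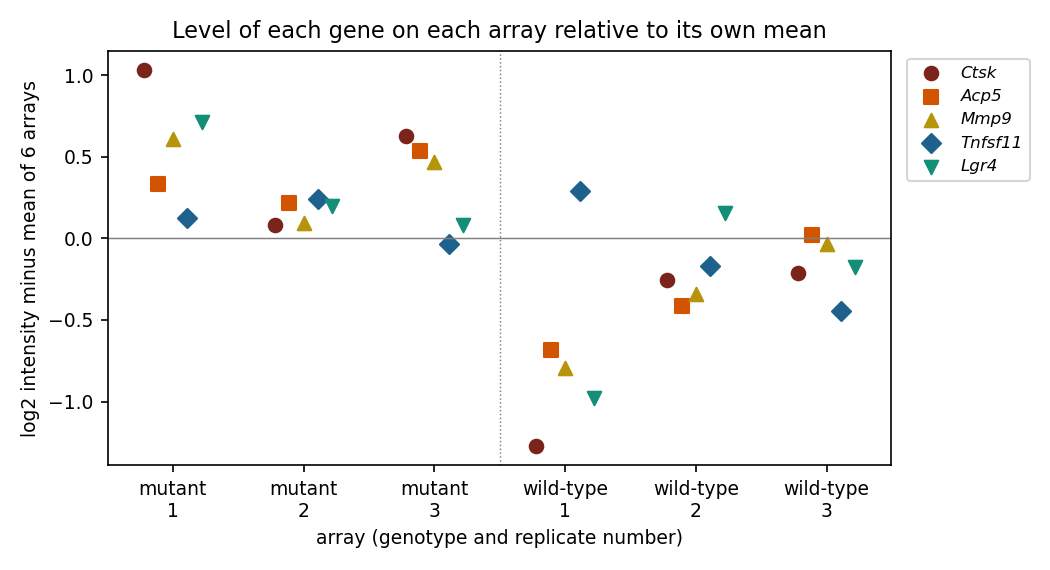
Log2 intensity of each gene on each array after subtracting the gene's own mean over 6 arrays; mutant arrays are left of the dotted line and wild-type arrays right of it. Ctsk, Acp5, Mmp9 and Lgr4 are lowest on wild-type replicate 1, where Tnfsf11 is highest.

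Of 13 alternatives, 10 could move a log2 difference and 3 (the filter on dim probe sets, the variance trend and the replicate block) leave it as it is by construction. Under those 10 each of the 5 genes had a higher mean in the mutants, a direction for which they had been chosen. For Ctsk the log2 difference lay between 0.73, with array weights, and 1.41, without mutant replicate 2. For Mmp9 it lay between 0.49 with array weights and 0.96 without wild-type replicate 3, and for Acp5 between 0.48 and 0.91 under the same settings. Array weights give wild-type replicate 1 a weight of 0.232, the lowest of the 6 arrays.

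**Figure D3:**
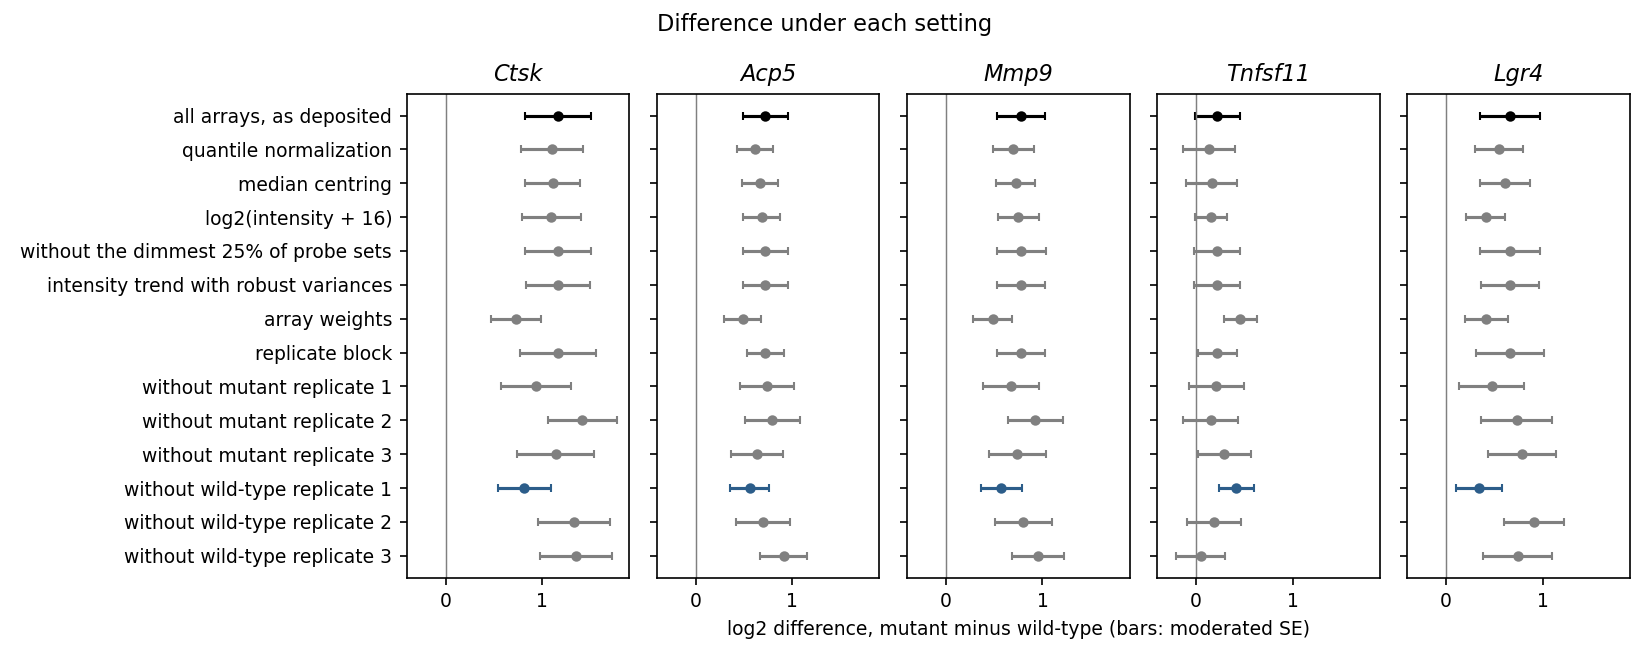
Log2 difference (mutant minus wild-type, horizontal axis) of each gene under the deposited values with all arrays (black), 12 alternatives (grey) and without wild-type replicate 1 (blue), with moderated SE as bars. All points lie right of 0. Those of Tnfsf11 run from 0.05 without wild-type replicate 3 up to 0.46 with array weights.

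The genes whose levels ran most like those of the 5 were sought among 4300 named genes with no value under 20, by Pearson's r of log2 values over the 6 arrays. Being the highest of so many, these r are a description with no p-value, and the points share the dim wild-type replicate 1. For Ctsk they were Egfr, the epidermal growth factor receptor (r = 0.991), Zfp207 (0.984) and Sema5a (0.981). For Acp5 they were Rgp1 (0.977), Snx12 (0.972) and Rnf144a (0.972), and for Mmp9 Epc1 (0.985), again Rnf144a (0.983) and Txnip (0.983), which encodes an inhibitor of thioredoxin. Txnip was at 459, 367 and 471 in mutants, against 216, 271 and 301 in wild-type mice. For Tnfsf11 the most alike were Syde1 (0.984), Tpgs1 (0.946) and Dvl2 (0.937), a transducer of Wnt signals. For Lgr4 they were Wasf2 (0.998), Crebbp (0.994), a histone acetyltransferase, and Impact (0.992). Over the 5 arrays other than wild-type replicate 1 these r lay between 0.949, for Rnf144a with Acp5, and 0.995.

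Other genes of the pathway were taken from 10 lists of its parts, written with earlier results of these arrays known. Of 134 genes other than the 5, 67 had a probe set of 1 symbol in the table. Of these, 13 were under 20 on at least 1 array and none on all arrays of a genotype. The other 67 were not analysed here, among them Tnfrsf11a (RANK), Tnfrsf11b (osteoprotegerin), Traf6, Calcr, Dcstamp, Atp6v0d2, Oscar and Trem2. None of the 67 measured genes passed in limma over all probe sets, the lowest adjusted p being 0.477, while 11 (16.4%) were higher and 0 lower at an unadjusted p under 0.05, against 5.74% and 1.7% of all probe sets. Those counts were 5 and 1 without wild-type replicate 1, where 288 of all 8997 probe sets were higher and 307 lower. Means were higher in mutant bone for 56 of the 67 (83.6%), against 56.7% of all probe sets, and the median log2 difference was 0.22 against 0.045. All probe sets include those with no symbol or several, and over those with 1 symbol the median was 0.0772. Without wild-type replicate 1 there were 43 of 67 higher (64.2%) against 44.7% of all probe sets. The median of the 67 was then 0.077, against -0.033 of all probe sets. In 13 of the 67 (19.4%) the mutant arrays all exceeded the wild-type arrays, against the 9.18% of all probe sets given above. This held for 14 (20.9%) without wild-type replicate 1, against 10.7% of all probe sets.

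**Figure D4:**
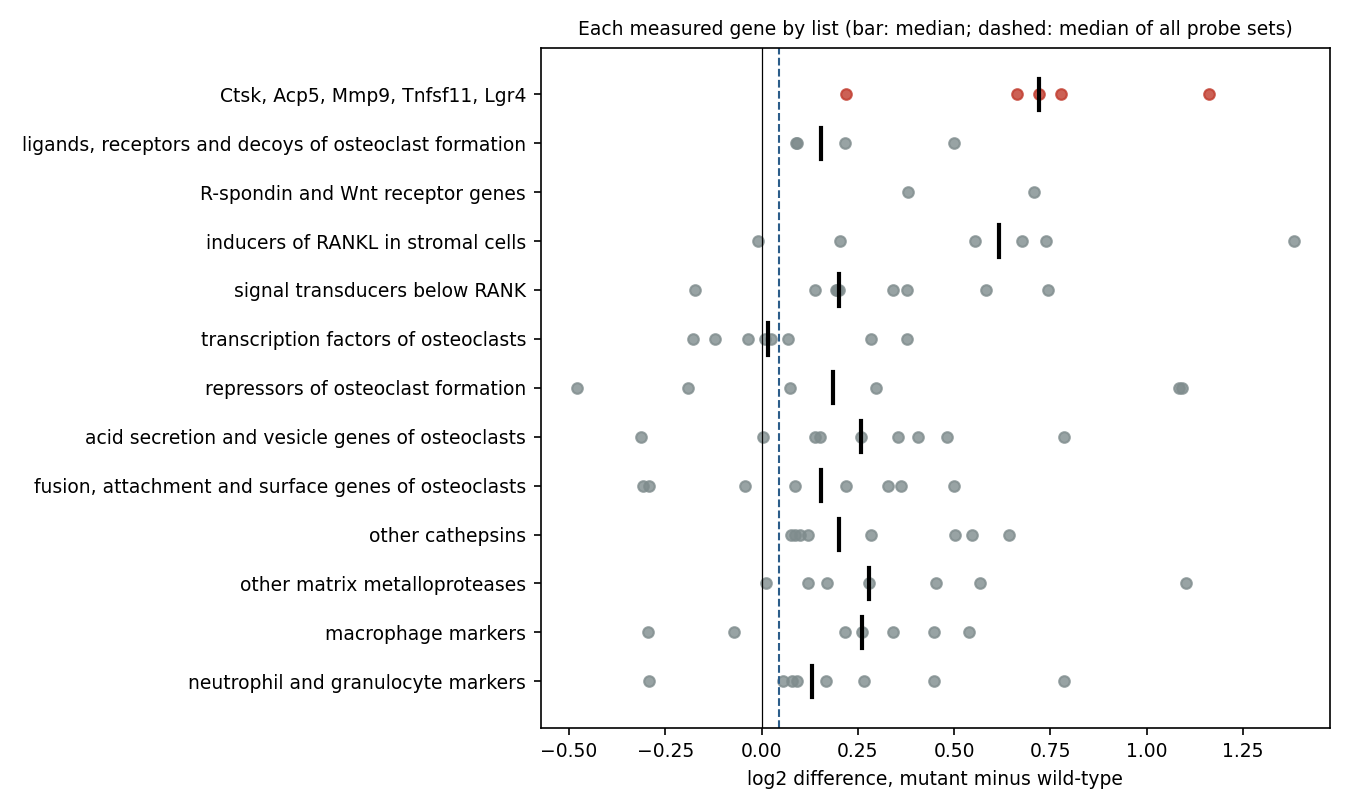
Log2 difference (mutant minus wild-type) of every measured gene, by list, with the 5 genes in the top row in red; black bars are medians of lists with more than 2 genes, and the dashed line is the median of all probe sets, 0.045. The transcription factors centre near 0, and the inducers of RANKL centre at 0.62.

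Upstream of the osteoclast, 4 further ligands and receptors were measured, all 4 with higher means in mutants, and 2 of 4 without wild-type replicate 1. Csf1, which encodes M-CSF, was at 0.091 ± 0.20 (limma adjusted p = 0.927) and its receptor Csf1r at 0.22 ± 0.20 (adjusted p = 0.788), and at 0.13 without wild-type replicate 1. Cxcl12, a chemokine that holds blood-forming cells in marrow, was at 29.0, 27.8 and 45.4 in mutants, against 21.5, 24.0 and 25.2 in wild-type mice, groups that did not overlap (0.50 ± 0.24, adjusted p = 0.686). The direction of Csf1 turned with array weights (-0.016), and also without wild-type replicate 1 (-0.048).

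Beside Lgr4, 2 genes of the R-spondin and Wnt receptor list were measured, the co-receptors Lrp6 and Lrp5. Lrp6 had 144, 125 and 112 in mutants, against 49.2, 106 and 89.2 in wild-type mice (0.71 ± 0.29, limma adjusted p = 0.667). Lrp5 had 131, 136 and 128 in mutants, against 79.4, 119 and 109 in wild-type mice (0.38 ± 0.21, adjusted p = 0.709). As for Lgr4, wild-type replicate 1 was the lowest array for both, but here no mutant array fell to a wild-type level. Without that array the difference was 0.38 for Lrp6 and 0.21 for Lrp5.

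Of 6 genes through which stromal cells are known to be driven to make RANKL, 5 had higher means in mutants (4 of 6 without wild-type replicate 1), with a median of 0.62. Lifr, the receptor of leukaemia inhibitory factor, was at 105, 81.7 and 61.5 in mutants, against 18.1, 38.0 and 43.2 in wild-type mice, with no overlap (1.38 ± 0.34, limma adjusted p = 0.499). Il6st, the shared receptor chain gp130, was at 0.74 ± 0.32 and Vdr, the vitamin D receptor, at 0.68 ± 0.30 (adjusted p = 0.669 each), both with overlapping groups. Without wild-type replicate 1 the median of the list was 0.41, Il6st was at 0.42 and Vdr at 0.39. Pth1r had a lower mean, at -0.0098 ± 0.29 (adjusted p = 0.994), and was at -0.30 without that array. Stat3 was at 0.20 ± 0.29 (adjusted p = 0.860), and at -0.043 without it.

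Below RANK, 8 of 9 signal transducers had higher means in mutants, and 7 of 9 without wild-type replicate 1, with a median of 0.20. Gab2, an adaptor that binds RANK, was at 47.3, 33.7 and 31.1 in mutants, against 22.5, 22.0 and 29.9 in wild-type mice, with no overlap (0.58 ± 0.23, limma adjusted p = 0.667). Tab2, an adaptor of the kinase TAK1, was at 0.74 ± 0.38, the calcineurin subunit gene Ppp3ca at 0.38 ± 0.26 and Tyrobp, the adaptor DAP12, at 0.20 ± 0.26 (adjusted p = 0.708, 0.745 and 0.850). With wild-type replicate 1 left out these 3 were at 0.24, 0.083 and 0.13, and the median of the list was 0.13.

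The transcription factors of osteoclasts were divided, with 5 of 8 higher in mutants, 3 of 8 without wild-type replicate 1, and a median of 0.016. Nfatc1 had 56.2, 43.0 and 48.0 in mutants, against 36.7, 77.5 and 52.4 in wild-type mice, so the wild-type values lay on both sides of all mutant values. Its log2 difference was -0.12 ± 0.28 (limma adjusted p = 0.931), with 0.15 without wild-type replicate 2 and -0.39 without wild-type replicate 1. The AP-1 genes Fosl2 and Jun were at 0.28 ± 0.30 and 0.38 ± 0.43, and Junb at -0.18 ± 0.19 (adjusted p = 0.811, 0.828 and 0.819). Jun was at -0.0088 without mutant replicate 3, and without wild-type replicate 1 Jun was at 0.081 and Fosl2 at 0.063. The median of this list was -0.042 after quantile normalization.

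Among 6 genes that restrain osteoclast formation, 4 had higher means in mutants and 3 of 6 did so without wild-type replicate 1. Id2, an inhibitor of basic helix-loop-helix factors, was at 108, 69.2 and 62.4 in mutants, against 34.1, 32.6 and 44.1 in wild-type mice. Here wild-type replicate 1 lay among the other wild-type arrays, and the groups did not overlap (1.08 ± 0.25, limma adjusted p = 0.477). Nfkbia, the inhibitor of NF-kappaB that is also one of its targets, was at 90.7, 96.0 and 59.8 in mutants, against 23.4, 59.1 and 38.9 in wild-type mice, with the lowest mutant just above the highest wild-type array (1.09 ± 0.34, adjusted p = 0.591). Socs3, an inhibitor of cytokine signals, was at -0.48 ± 0.34 (adjusted p = 0.747), with 1 high array, wild-type replicate 2 at 85.0, and at -0.75 without wild-type replicate 1. The median of the list was 0.19, and 0.081 without that array.

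Of 9 genes of acid secretion and vesicle traffic, 8 had higher means in mutants with all arrays and 8 without wild-type replicate 1, and the median was 0.26 with all arrays and 0.069 without that one. Atp6v1b2, a subunit of the proton pump, was at 389, 308 and 313 in mutants, against 131, 228 and 245 in wild-type mice (0.79 ± 0.27, limma adjusted p = 0.638). Tcirg1, the pump subunit of the ruffled border, was at 68.6, 58.1 and 57.2 in mutants, against 35.4, 45.2 and 52.4 in wild-type mice (0.48 ± 0.21, adjusted p = 0.671). Neither gene overlapped between genotypes, and Atp6v1b2 was at 0.50 without wild-type replicate 1. Plekhm1, a vesicle adaptor mutated in osteopetrosis, was at 0.41 ± 0.21 and the chloride-proton exchanger gene Clcn7 at 0.26 ± 0.23, or 0.069 without that array. Car2, the carbonic anhydrase that supplies the protons, had 37.2, 46.5 and 34.1 in mutants, against 79.4, 23.1 and 61.7 in wild-type mice, and differed by -0.31 ± 0.40 (adjusted p = 0.848), with 0.045 without wild-type replicate 1.

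Genes of fusion, attachment and the cell surface were higher in 5 of 8 and, without wild-type replicate 1, in 4 of 8, with a median of 0.15 and, without it, 0.043. Itgav and Itgb3, the chains of the vitronectin receptor that seals the pit, were at 0.50 ± 0.32 and 0.36 ± 0.24 (limma adjusted p = 0.725 and 0.729), or 0.14 and 0.17 without that array. Ocstamp, a fusion protein of osteoclasts, was at 21.3, 25.6 and 25.6 in mutants, against 18.8, 23.0 and 20.4 in wild-type mice (0.22 ± 0.20, adjusted p = 0.780). Siglec15, a sialic acid receptor of osteoclasts, was at -0.29 ± 0.23 (adjusted p = 0.767) and, without wild-type replicate 1, at -0.070, and with all arrays in none of the 8 were the groups separate.

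The families of the enzymes were also measured. All 8 other cathepsins had higher means in mutants, and 5 of 8 without wild-type replicate 1, with a median of 0.20 and, without it, 0.079. Ctsl was at 0.64 ± 0.25, Ctss at 0.55 ± 0.29 and Ctsf at 0.50 ± 0.22 (limma adjusted p = 0.664, 0.708 and 0.671), and all 3 encode lysosomal proteases. All 7 other metalloproteases and inhibitors also had higher means, and 5 of 7 without wild-type replicate 1. Mmp13, the collagenase of hypertrophic cartilage and osteoblasts, had 685, 445 and 351 in mutants, against 136, 269 and 295 in wild-type mice, with no overlap (1.10 ± 0.34, adjusted p = 0.591). Mmp2 was at 0.45 ± 0.21, the inhibitor gene Timp3 at 0.57 ± 0.45 and Mmp14 at 0.17 ± 0.22. Timp3 was at 0.054 and Mmp14 at 0.045 without wild-type replicate 1, and the median of the list was 0.054, against 0.28 with all arrays.

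Of 12 markers chosen for osteoclasts, 8 were measured: Ctsk, Acp5, Mmp9, Ocstamp, Itgb3, Siglec15, Tcirg1 and Clcn7. In RNA from whole bone, a different number of osteoclasts and a different amount of each transcript per osteoclast cannot be told apart. Mmp9 and Acp5 are also made by other marrow cells. Of 7 macrophage markers 5 had higher means in mutants, with a median of 0.26 (5 of 7 and 0.14 without wild-type replicate 1), and their summed intensity was 331 to 359 in mutants, against 254 to 373 in wild-type mice. Mrc1 was at 0.54 ± 0.25, C1qb at 0.45 ± 0.24 and Cd68 at 0.34 ± 0.24 (limma adjusted p = 0.686, 0.708 and 0.746), or 0.33, 0.23 and 0.16 without that array. Lyz2 and C1qa had lower means in mutants, at -0.29 ± 0.33 and -0.070 ± 0.18 (adjusted p = 0.826 and 0.940). Of 8 neutrophil markers 7 were higher, with a median of 0.13 (6 of 8 and 0.38 without wild-type replicate 1) and sums of 331 to 455 in mutants, against 190 to 390 in wild-type mice. Lcn2 was at 0.79 ± 0.37 and S100a8 at 0.45 ± 0.32 (adjusted p = 0.691 and 0.747). On mutant replicate 2 Lcn2 had an intensity of 212, against 120 and 84.1 on mutant replicates 1 and 3. Ngp was at 0.091 ± 0.28 (adjusted p = 0.950). Ltf had a lower mean, at -0.29 ± 0.34 (adjusted p = 0.832), or -0.17 without wild-type replicate 1. None of these markers was listed at 0, but S100a8 was under 20 on 1 mutant and 2 wild-type arrays, and C1qb on 2 wild-type arrays. The part of the markers in the levels of the 3 enzymes was not tested.

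The cells that make RANKL were likewise divided in their markers. Of 8 osteoblast markers 6 had higher means in mutants, with a median of 0.11 (3 of 8 and -0.027 without wild-type replicate 1). Of 4 osteocyte markers 2 had higher means (3 of 4 without that array). Dmp1 was at 0.73 ± 0.33 and Phex at 0.54 ± 0.41 (limma adjusted p = 0.671 and 0.760), or 0.34 and 0.28 without it. Pdpn was at -0.12 ± 0.21 and Sost at -0.041 ± 0.31, or -0.21 and 0.043 without it. Phex was under 20 on 1 mutant and 1 wild-type array, and Sost on 2 mutant arrays and 1 wild-type array. Of 7 hypertrophic chondrocyte markers 4 were higher (3 of 7 without wild-type replicate 1), with Mmp13 above and with Ihh, the hedgehog signal of the growth plate, at -0.45 ± 0.23 and Panx3, a channel gene, at -0.49 ± 0.30 (adjusted p = 0.708 and 0.723). Of 12 proliferating chondrocyte markers 11 were higher with all arrays and 5 without wild-type replicate 1. Skeletal muscle markers were higher in 3 of 11, endothelial markers in 4 of 6 and erythroid markers in 2 of 3, and without wild-type replicate 1 in 1 of 11, 1 of 6 and 3 of 3. All 6 epidermal markers had lower means in mutants, with and without that array, but with array weights their median turned to 0.16. How far these tissues bear on the 5 genes was not tested.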

How the data were processed

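The deposited values, per the file headers 1 column per array, are intensities on a linear scale for 8997 probe sets on 6 single-colour Affymetrix whole-transcript arrays, 3 mutant and 3 wild-type. How the authors corrected background, summarised probes and scaled arrays is not given in the sources used here. Every probe set reached 20 on at least 3 arrays. The platform annotation of 2016 gave 1 symbol to 6398 probe sets, several to 576 and none to 2023. Of a gene's several probe sets, the one of highest mean was used. 

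Log2 intensities were fitted with 2 group means by limma 3.58.1 in R 4.3.3 (lmFit, eBayes; two-sided; Benjamini-Hochberg over all probe sets; threshold 0.05), and the fit was tested on simulated data. The number of arrays limits precision. The 5 genes, lists and tests were chosen with earlier results of these data known. The text names the 5 genes, set pathway genes, up to 3 genes of smallest p in a list, and the 3 genes of highest r for each of the 5. It also names some further list genes whose means were lower, turned or changed little. Markers of osteoblasts, proliferating chondrocytes, erythroid cells, muscle, epidermis and endothelium are given by counts. The alternatives were median centring or quantile normalization, an offset of 16 before log2, dropping the dimmest 25%, a variance trend with robust fitting, weights for arrays, a block for the replicate number, an adjusted p of 0.1, means over a gene's probe sets, and each array left out. Python 3.11.15, pandas 2.3.3 and matplotlib 3.10.9 served for sequences and plots.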

Additional observations from a re-analysis of the deposited data

How the results depend on the processing

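The log2 differences of Ctsk, Acp5, Mmp9, Tnfsf11 and Lgr4 kept their direction under the 10 alternatives that could move them. The genes had been chosen for this direction on the same arrays. The differences ranged over 0.73 to 1.41 for Ctsk, 0.48 to 0.91 for Acp5, 0.49 to 0.96 for Mmp9, 0.05 to 0.46 for Tnfsf11 and 0.34 to 0.91 for Lgr4. The deposited table gives no background measure, so the level of Lgr4, under 20 on 1 array, depends on handling that is not stated. For each result below that moved or turned, the cause was not tested.

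The number of probe sets called was 0, but 4 with array weights, 0 at an adjusted p of 0.1, and between 0 and 15 with each array left out in turn, 15 of them without mutant replicate 3. The count at an unadjusted p under 0.05 was 669, but 1412 with array weights, and between 322 and 974 with an array left out. Of these, 235 to 809 were higher and 87 to 321 lower with an array left out, against 516 and 153. The lower count was 322 after quantile normalization, 294 after median centring, 796 with array weights and 236 with the replicate number as a block. The probe sets whose mutant arrays all exceeded the wild-type arrays numbered 826, and 966 to 1711 with an array left out, where fewer arrays must be in order. The replicate numbers are shared by the genotypes without a stated pairing. The deviations of same-numbered arrays from their group means correlated at -0.076, -0.055 and 0.32, the last being the highest of all pairs. Mutant replicate 2 correlated best with wild-type replicate 1 (0.30). Deviations from a mean of 3 arrays are tied to one another, so whether the numbers pair the arrays cannot be told from these values. With the replicate block 681 probe sets had an unadjusted p under 0.05 and 0 were called.

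The median over all probe sets was 0.045, and -0.019 after quantile normalization, -0.012 after median centring and -0.027 with array weights, with a range of -0.033 to 0.11 over the arrays left out. The median of the transcription factors was -0.042 after quantile normalization and -0.040 after median centring, and -0.047 to 0.20 with an array left out. That of the signal transducers was 0.13 to 0.46 and that of the repressors 0.081 to 0.37. With array weights the median was -0.026 for osteoblast, -0.060 for osteocyte, -0.11 for hypertrophic chondrocyte, 0.16 for epidermal and -0.12 for endothelial markers, the last being -0.011 after quantile normalization. With an array left out the medians were -0.15 to 0.38 for neutrophil, -0.22 to 0.41 for erythroid, -0.027 to 0.26 for osteoblast, -0.086 to 0.49 for osteocyte, -0.020 to 0.29 for hypertrophic and -0.040 to 0.26 for proliferating chondrocyte, -0.38 to 0.17 for muscle and -0.11 to 0.13 for endothelial markers. Among single genes, Csf1 was at -0.016 with array weights and, with an array left out, at -0.048 to 0.18. On the same terms Nfatc1 was at -0.39 to 0.15, Car2 at -0.85 to 0.045, Tnni2 at -0.46 to 0.21, Jun at -0.0088 to 0.84 and Pdpn at -0.25 to 0.012. Each listed gene had a single probe set, so the mean over probe sets equals the value given. Counts of higher genes without wild-type replicate 1 were an alternative chosen after seeing the data.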
